A study of Mus musculus with 12 samples.

Results

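The 10 genes described here encode amino acid transporters of the cell surface and of intracellular membranes: Slc7a1, Slc7a3, Slc7a5, Slc3a2, Slc38a1, Slc38a2, Slc6a9, Slc1a4, Slc1a5 and Slc36a4. They were taken as a named list from the 53801 gene identifiers of the deposited counts, and each symbol matched 1 identifier. The list was chosen with earlier results of these data known. All 10 passed the filter on low counts and were among the 15828 genes tested. The libraries hold messenger RNA of C2C12, a line of mouse muscle precursor cells (myoblasts). They fall into 4 groups of 3: Cebpg knockdown cells with thapsigargin (Sh2-Thap), knockdown cells with DMSO (Sh2-DMSO), control cells with thapsigargin (Ctrl-Thap) and control cells with DMSO (Ctrl-DMSO). Exposure lasted 6 h in all of them. Thapsigargin inhibits SERCA, the calcium pump of the endoplasmic reticulum (ER), and by emptying that organelle of calcium it causes ER stress. DMSO is its solvent. The dose is not stated in the labels. The knockdown carries the 1 label Sh2, and no label states which construct the control cells carried. Loss of C/EBP gamma and off-target action of Sh2 cannot be told apart here, nor can either be told from other stable differences between knockdown and control cells. No label says that replicates were separate cultures, so p-values measure the spread between these libraries, which may be technical.

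Amino acid transporters of the solute carrier (SLC) families move amino acids across the plasma membrane or out of organelles, some as uniporters or exchangers and some coupled to sodium or protons. When unfolded proteins build up in the ER, the kinase PERK phosphorylates the initiation factor eIF2 alpha, general translation falls and translation of the transcription factor ATF4 rises. ATF4 binds composite C/EBP-ATF elements as a dimer with C/EBP family proteins, C/EBP gamma among them, and amino acid transporter genes are among its well known targets.

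Reads assigned to genes numbered 29.42 to 47.72 M per library. Levels are CPM, the counts of a gene scaled to 1 M gene reads of its library with TMM factors, given as mean ± SD with n = 3 libraries per group. A CPM is a share of a library's RNA, so fewer cells with a transcript and less transcript per cell cannot be told apart. The targeted gene, Cebpg, stood at 5.66 ± 0.419 CPM in Sh2-Thap and 4.51 ± 0.722 CPM in Sh2-DMSO, against 215.6 ± 3.97 CPM in Ctrl-Thap and 54.6 ± 5.21 CPM in Ctrl-DMSO. The growth protocol in the labels names HeLa cells, but 5 myoblast markers summed to 1580.1 to 2057 CPM in every library. That sum was 1612.2 to 1707.6 CPM in Sh2-Thap, 1594.5 to 1721.7 CPM in Sh2-DMSO, 1580.1 to 1649.6 CPM in Ctrl-Thap and 1880.1 to 2057 CPM in Ctrl-DMSO. Within it Myf5 averaged higher with thapsigargin than in DMSO in both cell populations, and Myod1, Des, Cdh15 and Chrna1 averaged lower. Sums of 5 markers each were at most 7.13 CPM for leukocytes, 8.49 CPM for epithelium, 27.2 CPM for endothelium and 1.89 CPM for adipocytes. The endothelial sum was 13.2 to 15.5 CPM in Sh2-Thap, 5.51 to 6.57 CPM in Sh2-DMSO, 23.2 to 27.2 CPM in Ctrl-Thap and 3.85 to 4.86 CPM in Ctrl-DMSO, with Emcn at 0 reads in every group except Sh2-Thap. The epithelial sum was 7.19 to 8.49 CPM in Sh2-Thap, 1.09 to 1.13 CPM in Sh2-DMSO, 2.99 to 3.57 CPM in Ctrl-Thap and 0.318 to 0.43 CPM in Ctrl-DMSO. Epcam had 0 reads in both control groups. Tek made up most of the endothelial sum, at 22.6 CPM in Ctrl-Thap and 11.4 CPM in Sh2-Thap. Pecam1 also averaged higher in Ctrl-Thap than in Sh2-Thap, and Cdh5 and Kdr averaged lower. The leukocyte sum was 3.467 to 4.345 CPM in Sh2-Thap, 4.92 to 7.13 CPM in Sh2-DMSO, 2.25 to 2.73 CPM in Ctrl-Thap and 3.7 to 4.22 CPM in Ctrl-DMSO. These sums moved with the groups, and their part in the results below was not tested.

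RefSeq promoter windows (GRCm38.p6, 250 bases before a start site and 50 after it) were on hand for 6 of the 10 genes, as 9 windows. They were searched on both strands for the C/EBP-ATF response element TGATGNAA and for the ER stress response element, CCAAT and CCACG with 9 bases between them. The C/EBP-ATF element is the kind of site that a C/EBP-ATF dimer can bind, and 3.97% of all 32851 RefSeq windows hold it. The one Slc3a2 window lies inside the gene, and a short stretch just after its start site was not found in the GENCODE transcripts of the gene. Another Slc7a1 window, not shown, and the Slc6a9 windows also lie inside their genes. One of the 9 windows held the first motif, that of Slc1a4, and no window held the second, which 0.12% of all windows hold. The match in Slc1a4 is also the stricter form TGATGCAA, found in 0.89% of windows, read on the opposite strand. It covers the 4 bases before the start site and the 4 after it. The Slc1a4 window is shown because it holds the match (chr11:20332710-20332963, minus strand, capitals mark the match). Slc7a1, with a large thapsigargin effect (chr5:148399905-148400154, minus strand), and Slc36a4, with a small one (chr9:15709488-15709737, plus strand), are shown beside it without a match. All 3 run 5′ to 3′ along the strand of the gene. The absence of these letters from such a window says nothing about binding elsewhere.
Slc1a4: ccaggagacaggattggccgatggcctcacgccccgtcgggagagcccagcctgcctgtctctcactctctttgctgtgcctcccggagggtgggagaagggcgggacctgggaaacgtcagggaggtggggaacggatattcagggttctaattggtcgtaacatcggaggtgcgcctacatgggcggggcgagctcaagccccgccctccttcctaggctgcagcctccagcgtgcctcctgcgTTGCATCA
Slc7a1: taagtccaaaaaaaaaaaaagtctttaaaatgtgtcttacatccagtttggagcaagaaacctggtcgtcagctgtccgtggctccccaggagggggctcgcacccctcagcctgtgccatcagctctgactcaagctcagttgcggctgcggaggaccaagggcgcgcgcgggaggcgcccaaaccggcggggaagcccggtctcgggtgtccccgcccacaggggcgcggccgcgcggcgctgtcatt
Slc36a4: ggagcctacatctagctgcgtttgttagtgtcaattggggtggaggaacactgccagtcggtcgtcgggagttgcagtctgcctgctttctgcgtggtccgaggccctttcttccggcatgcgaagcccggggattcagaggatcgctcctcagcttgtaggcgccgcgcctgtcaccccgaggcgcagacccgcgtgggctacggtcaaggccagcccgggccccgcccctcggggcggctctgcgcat

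Summed over the 10 transcripts, levels were higher with thapsigargin than in DMSO in both cell populations, and highest in control cells with thapsigargin. Per kb of merged exons, their summed level was 568.3 ± 5.72 CPM in Sh2-Thap, 222.1 ± 1.42 CPM in Sh2-DMSO, 1210.3 ± 35.2 CPM in Ctrl-Thap and 270.5 ± 12 CPM in Ctrl-DMSO, a sum given as a description with no test. Slc3a2, Slc7a5 and Slc38a2 made up most of that sum. Slc3a2 alone held 53.7% ± 0.421 of it in Sh2-Thap and 29.1% ± 1.11 in Sh2-DMSO, against 48.3% ± 0.304 in Ctrl-Thap and 23.6% ± 0.158 in Ctrl-DMSO. Slc38a2 held 11.1% ± 0.334 in Sh2-Thap and 27.4% ± 1.1 in Sh2-DMSO, against 8.44% ± 0.487 in Ctrl-Thap and 26.5% ± 0.581 in Ctrl-DMSO. The order of per-length levels in Ctrl-DMSO was Slc7a5, Slc38a2, Slc3a2, Slc1a4, Slc1a5, Slc38a1, Slc7a1, Slc36a4, Slc6a9 and Slc7a3. In that order only Slc38a1 and Slc7a1 overlapped as neighbours. Merged exons pool all annotated transcripts of a gene, and which of them these cells used was not examined. Shares, orders and ratios between genes depend on that length, and overlap of libraries does not show any error in it. In Sh2-Thap the order was Slc3a2, Slc7a5, Slc38a2, Slc1a4, Slc7a1, Slc38a1, Slc6a9, Slc1a5, Slc36a4 and Slc7a3, and only Slc6a9 and Slc1a5 overlapped as neighbours.

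**Figure D1:**
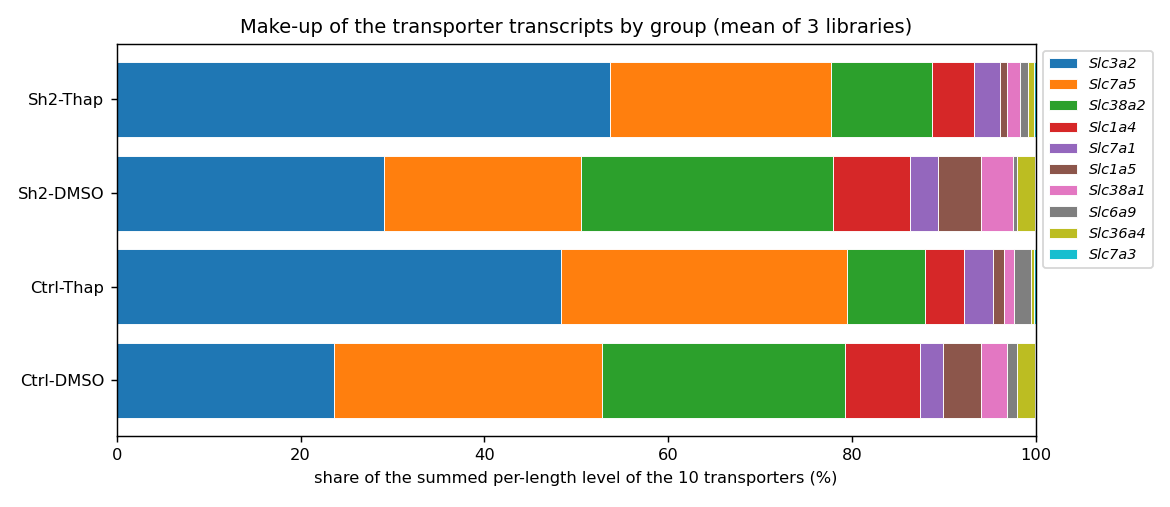
Each horizontal bar is 1 group, and its segments are the mean share (%) of each gene in the summed per-length level of the 10 transporters, over 3 libraries. Slc3a2 takes 53.7% in Sh2-Thap and 29.1% in Sh2-DMSO, against 48.3% in Ctrl-Thap and 23.6% in Ctrl-DMSO.

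Slc3a2 and Slc7a5 encode the 2 chains of one exchanger. Slc3a2 (ENSMUSG00000010095, chromosome 19, 8706882 to 8723369 in GRCm38) encodes the heavy chain 4F2hc, a single-pass glycoprotein that carries several SLC7 light chains to the cell surface. Its levels with thapsigargin were 1079.5, 1072 and 1078.2 CPM in Sh2-Thap libraries and 1997, 2059.8 and 2136.1 CPM in Ctrl-Thap libraries. In DMSO they were 223.5, 239.3 and 220.5 CPM in Sh2-DMSO libraries and 224.2, 214.9 and 237.2 CPM in Ctrl-DMSO libraries. The cell populations overlapped in DMSO and were far apart with thapsigargin. The knockdown effect was -0.94 in log2 with thapsigargin (SE 0.04, edgeR adjusted p = 1.4e-18) and 0.01 in DMSO, where it did not pass (approximate 95% interval -0.08 to 0.11, edgeR adjusted p = 0.811). That DMSO value turned to -0.01 when scaled by total gene reads. Thapsigargin raised Slc3a2 by 2.24 in log2 in knockdown cells (SE 0.05) and by 3.19 in control cells (SE 0.05), and the difference between those effects was -0.95 (SE 0.06, edgeR adjusted p = 7.73e-14). In CPM the gain in knockdown cells was 848.8 (SE 6.27), which is 46.2% (SE 1.08) of the gain of 1838.9 (SE 40.7) in control cells.

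Slc7a5 (ENSMUSG00000040010, chromosome 8, 121881150 to 121907694) encodes LAT1, the light chain that exchanges large neutral amino acids such as leucine and needs 4F2hc. With thapsigargin it stood at 521.1, 495.9 and 501.8 CPM in Sh2-Thap libraries and at 1365.3, 1370.9 and 1461.3 CPM in Ctrl-Thap libraries. In DMSO it stood at 176.9, 180.1 and 174.7 CPM in Sh2-DMSO libraries and at 284.8, 278.4 and 314.8 CPM in Ctrl-DMSO libraries. Unlike Slc3a2, it was lower in every knockdown library than in every control library under both treatments. The knockdown effect was -1.47 with thapsigargin (SE 0.05, edgeR adjusted p = 3.72e-23) and -0.72 in DMSO (SE 0.05, edgeR adjusted p = 1.16e-14). Thapsigargin raised it by 1.51 in log2 in knockdown cells and by 2.26 in control cells, a difference of -0.74 (SE 0.07, edgeR adjusted p = 4.7e-11). The ratio of Slc7a5 to Slc3a2 per length was 0.448 ± 0.0104 in Sh2-Thap and 0.741 ± 0.0217 in Sh2-DMSO, against 0.645 ± 0.0101 in Ctrl-Thap and 1.24 ± 0.0272 in Ctrl-DMSO. No libraries of different groups overlapped in that ratio, which is a description of transcript levels and says nothing of assembled protein.

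Slc7a1 and Slc7a3 encode cationic amino acid transporters, CAT1 and CAT3, which carry arginine, lysine and ornithine. Slc7a1 (ENSMUSG00000041313, chromosome 5, 148327410 to 148399904) is the widely expressed one. It stood at 187, 176 and 187.4 CPM in Sh2-Thap libraries and at 434.5, 445.6 and 462.7 CPM in Ctrl-Thap libraries. The DMSO libraries overlapped, with 72.3, 77 and 81.3 CPM in Sh2-DMSO and 80.6, 74.8 and 87.6 CPM in Ctrl-DMSO. The knockdown effect was accordingly -1.29 with thapsigargin (SE 0.05, edgeR adjusted p = 1.49e-20) and -0.07 in DMSO, which did not pass (approximate 95% interval -0.18 to 0.03, edgeR adjusted p = 0.252). Thapsigargin raised Slc7a1 by 1.25 in log2 in knockdown cells and by 2.47 in control cells. The difference was -1.21 (SE 0.07, edgeR adjusted p = 9.93e-15), and the knockdown gain was 29.1% (SE 1.44) of the control gain in CPM.

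Slc7a3 (ENSMUSG00000031297, chromosome X, 101079210 to 101086020) was the lowest of the 10 per length in every group. It had 255 reads over the Sh2-Thap group, 39 over Sh2-DMSO, 618 over Ctrl-Thap and 46 over Ctrl-DMSO. Its levels were 2.09, 2.69 and 2.96 CPM in Sh2-Thap libraries and 5.98, 5.29 and 5.28 CPM in Ctrl-Thap libraries. In DMSO they were 0.388, 0.442 and 0.347 CPM in Sh2-DMSO libraries and 0.612, 0.344 and 0.376 CPM in Ctrl-DMSO libraries. The thapsigargin libraries of the 2 populations did not overlap and the DMSO libraries did. Thapsigargin raised it by 2.71 in log2 in knockdown cells (SE 0.24) and by 3.63 in control cells (SE 0.21). The difference of -0.92 (SE 0.38) did not pass, with an edgeR adjusted p = 0.0552 and an approximate 95% interval of -1.68 to -0.16. It passed without Ctrl-DMSO replicate 1 (-1.22, edgeR adjusted p = 0.0202) and without Sh2-Thap replicate 3 (-1.03, edgeR adjusted p = 0.0383). It also passed with a stricter filter of at least 1 CPM in 3 libraries (-0.94, edgeR adjusted p = 0.047), and as a difference of -2.89 CPM on the unlogged scale (limma adjusted p = 4.42e-05). Among these transporters it varied most between replicates, with a biological coefficient of variation of 9.49% against 3.68% to 5.62% for the others.

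**Figure D2:**
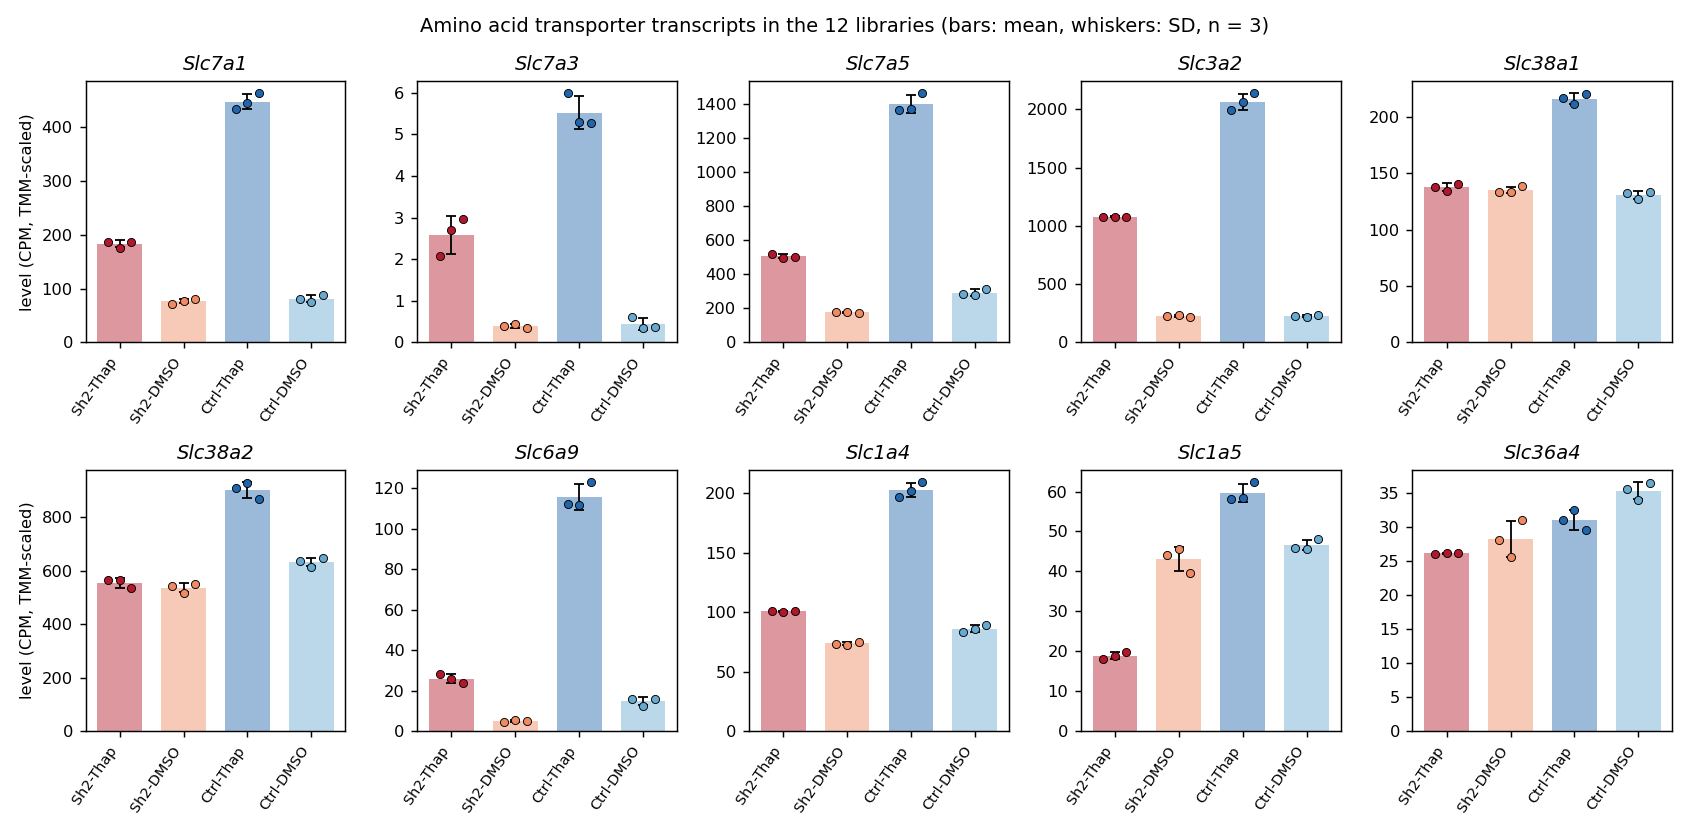
Each panel shows 1 gene, with the level (CPM, TMM-scaled) of each library as a point, the group mean as a bar and the SD as a whisker (n = 3 per group). In Ctrl-Thap each gene except Slc36a4 reaches its highest level. Slc1a5 is lowest in Sh2-Thap, at 18.9 CPM.

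Slc38a1 and Slc38a2 encode the sodium-coupled neutral amino acid transporters SNAT1 and SNAT2, which take up glutamine and alanine. Both lie on chromosome 15, Slc38a1 (ENSMUSG00000023169) at 96571418 to 96642913 and Slc38a2 (ENSMUSG00000022462) at 96687392 to 96699730, with 44478 bp between them. SNAT2 is known for its induction by amino acid shortage. Slc38a2 stood at 566.2, 565.4 and 534.1 CPM in Sh2-Thap libraries and at 543, 516.2 and 551.8 CPM in Sh2-DMSO libraries. In control cells it stood at 909.2, 926.5 and 869.2 CPM in Ctrl-Thap libraries and at 636.5, 615.2 and 647.3 CPM in Ctrl-DMSO libraries. Thapsigargin thus separated the control libraries and left the knockdown libraries overlapping. The effect was 0.05 in log2 in knockdown cells, which did not pass (approximate 95% interval -0.04 to 0.14, edgeR adjusted p = 0.319), and 0.51 in control cells (SE 0.04, edgeR adjusted p = 1.42e-12). The difference was -0.46 (SE 0.06, edgeR adjusted p = 2.08e-07). Slc38a2 was already lower in knockdown cells in DMSO (-0.24, SE 0.04, edgeR adjusted p = 2.22e-05), and more so with thapsigargin (-0.70, SE 0.04, edgeR adjusted p = 1.63e-15).

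Slc38a1 had a similar thapsigargin pattern from overlapping levels in DMSO. It stood at 138, 134.2 and 140.8 CPM in Sh2-Thap libraries and at 133.7, 133.3 and 138.6 CPM in Sh2-DMSO libraries. In control cells it stood at 216.7, 211.7 and 220.6 CPM in Ctrl-Thap libraries and at 132.1, 127 and 133.8 CPM in Ctrl-DMSO libraries. The Ctrl-Thap libraries were the high ones, and the other 3 groups lay close together. The thapsigargin effect was 0.03 in knockdown cells, which did not pass (approximate 95% interval -0.06 to 0.12, edgeR adjusted p = 0.59), and 0.72 in control cells (SE 0.04, edgeR adjusted p = 1.2e-16). The difference was -0.70 (SE 0.06, edgeR adjusted p = 3.24e-11). The knockdown effect in DMSO was 0.05 and did not pass (approximate 95% interval -0.04 to 0.13, edgeR adjusted p = 0.388). Scaled by total gene reads, which puts the median gene at 0.12 in this comparison, the thapsigargin effect in knockdown cells passed for both genes, at 0.15 for Slc38a1 (edgeR adjusted p = 0.00383) and 0.17 for Slc38a2 (edgeR adjusted p = 0.000741). The ratio of Slc38a2 to Slc38a1 per length was 7.87 ± 0.422 in Sh2-Thap and 7.75 ± 0.186 in Sh2-DMSO, against 8.13 ± 0.428 in Ctrl-Thap and 9.42 ± 0.025 in Ctrl-DMSO.

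Slc6a9 (ENSMUSG00000028542, chromosome 4, 117834506 to 117875198) encodes GLYT1, a sodium- and chloride-coupled glycine transporter. It differed most with the knockdown of the 10 genes under either treatment. With thapsigargin it stood at 28.4, 25.9 and 23.7 CPM in Sh2-Thap libraries and at 112, 111.7 and 123 CPM in Ctrl-Thap libraries. In DMSO it stood at 4.56, 5.39 and 4.86 CPM in Sh2-DMSO libraries and at 15.9, 12.5 and 15.9 CPM in Ctrl-DMSO libraries. Knockdown cells thus held 22.5% of the control mean with thapsigargin (-2.15, SE 0.07, edgeR adjusted p = 2.21e-20) and 33.3% in DMSO (-1.58, SE 0.1, edgeR adjusted p = 1.84e-13). Thapsigargin raised Slc6a9 by 2.39 in log2 in knockdown cells and by 2.96 in control cells, and the difference was -0.57 (SE 0.13, edgeR adjusted p = 0.000772). Of its exonic bases 27.8% are shared with Ccdc24, 9.94% with Gm17114 and 0.89% with B4galt2, all on the opposite strand. No source here gives the strand setting of the counts. Ccdc24 averaged at most 0.249 CPM in any group and Gm17114 averaged 0 CPM in each. B4galt2 averaged 39.5 CPM in Ctrl-Thap, its lowest group, and 51.2 CPM in Ctrl-DMSO, its highest. The part of these overlaps in the Slc6a9 counts was not tested.

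Slc1a4 and Slc1a5 encode the related neutral amino acid exchangers ASCT1 and ASCT2, of which ASCT2 is a main glutamine carrier of dividing cells. Slc1a4 (ENSMUSG00000020142, chromosome 11, 20302180 to 20332713), whose promoter sequence with the C/EBP-ATF match is given above, stood at 101, 100.5 and 100.9 CPM in Sh2-Thap libraries and at 197.2, 202 and 209.3 CPM in Ctrl-Thap libraries. In DMSO it stood at 73.1, 72.6 and 75.3 CPM in Sh2-DMSO libraries and at 83.6, 85.9 and 89 CPM in Ctrl-DMSO libraries. Both pairs of groups were apart, with the wider gap under thapsigargin. The knockdown effect was -1.01 with thapsigargin (SE 0.04, edgeR adjusted p = 1.1e-19) and -0.23 in DMSO (SE 0.05, edgeR adjusted p = 7.44e-05). Thapsigargin raised it by 0.45 in log2 in knockdown cells and by 1.24 in control cells, a difference of -0.78 (SE 0.06, edgeR adjusted p = 4.79e-12). The knockdown gain was 23.2% (SE 1.06) of the control gain in CPM.

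Slc1a5 (ENSMUSG00000001918, chromosome 7, 16781340 to 16798274) moved in opposite directions in the 2 cell populations. It stood at 18, 18.8 and 19.8 CPM in Sh2-Thap libraries and at 44.1, 45.6 and 39.6 CPM in Sh2-DMSO libraries. In control cells it stood at 58.2, 58.5 and 62.3 CPM in Ctrl-Thap libraries and at 45.9, 45.7 and 48 CPM in Ctrl-DMSO libraries. Thapsigargin lowered every knockdown library below the DMSO range and put every control library above it. The log2 effect was -1.19 in knockdown cells (SE 0.06, edgeR adjusted p = 1.53e-17) and 0.36 in control cells (SE 0.06, edgeR adjusted p = 1e-06). The difference of -1.55 (SE 0.09, edgeR adjusted p = 6.21e-16) was the largest of the 10 genes. With thapsigargin the knockdown effect was -1.66 (SE 0.06, edgeR adjusted p = 2.61e-21). In DMSO the effect was -0.11 and did not pass (approximate 95% interval -0.23 to 0.01, edgeR adjusted p = 0.111), although the libraries did not overlap. The DMSO effect passed without Sh2-DMSO replicate 2 (-0.15, edgeR adjusted p = 0.0427) and when scaled by total gene reads (-0.14, edgeR adjusted p = 0.047). The ratio of Slc1a4 to Slc1a5 per length was 5.68 ± 0.276 in Sh2-Thap and 1.82 ± 0.172 in Sh2-DMSO, against 3.61 ± 0.0529 in Ctrl-Thap and 1.97 ± 0.0299 in Ctrl-DMSO.

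Slc36a4 (ENSMUSG00000043885, chromosome 9, 15709738 to 15743361) encodes PAT4, a transporter of proline and tryptophan. It was the one gene of the 10 that fell with thapsigargin in control cells. It stood at 26, 26.2 and 26.1 CPM in Sh2-Thap libraries and at 28.1, 25.6 and 31 CPM in Sh2-DMSO libraries. In control cells it stood at 31, 32.4 and 29.6 CPM in Ctrl-Thap libraries and at 35.6, 34 and 36.4 CPM in Ctrl-DMSO libraries. The knockdown libraries overlapped between treatments and the control libraries did not. The thapsigargin effect was -0.11 in knockdown cells, which did not pass (approximate 95% interval -0.25 to 0.02, edgeR adjusted p = 0.13), and -0.19 in control cells (SE 0.06, edgeR adjusted p = 0.00887). The first passed without Sh2-DMSO replicate 2 (-0.19, edgeR adjusted p = 0.0167) and was 0.007 when scaled by total gene reads (edgeR adjusted p = 0.937). The difference between the effects was 0.07 and did not pass (approximate 95% interval -0.11 to 0.26, edgeR adjusted p = 0.57). Under the total-reads scaling it was 0.23 (edgeR adjusted p = 0.0464), where the median gene stood at 0.17. The knockdown effect was -0.25 with thapsigargin (SE 0.07, edgeR adjusted p = 0.00151) and -0.32 in DMSO (SE 0.06, edgeR adjusted p = 8.3e-05). The first of these was -0.12 with total-reads scaling (edgeR adjusted p = 0.141).

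**Figure D3:**
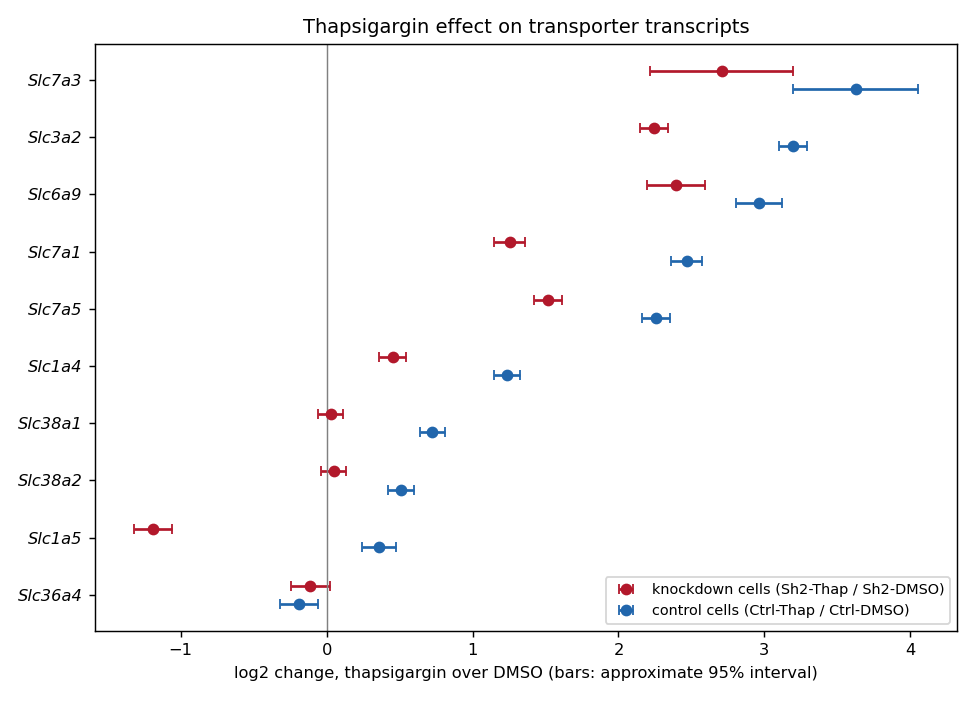
Points are log2 changes with thapsigargin over DMSO for each gene, knockdown cells above control cells, with approximate 95% intervals as bars. Slc1a5 stands at -1.19 in knockdown cells and 0.36 in control cells, and Slc38a1 and Slc38a2 stand near 0 in knockdown cells.

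Because earlier results of these data were known when the 10 genes were chosen, their counts beside shares of all genes are descriptions, here and below. Across the list, thapsigargin raised 6 of the 10 genes in knockdown cells, where 35.4% of all genes tested rose, and 9 of 10 in control cells, where 37.7% rose. In knockdown cells 1 gene fell, Slc1a5, and in control cells 1 fell, Slc36a4, against 34.4% and 37% of all genes. In either direction 69.8% of all genes passed in knockdown cells and 74.7% in control cells. The 3 of the 10 that did not pass in knockdown cells were Slc38a1, Slc38a2 and Slc36a4. Libraries without overlap were the same genes as those that passed: 6 higher (36.1% of all genes) and 1 lower (35.3%) in knockdown cells, and 9 higher (38.8%) and 1 lower (38.2%) in control cells. The median log2 change was 0.85 in knockdown cells and 1.75 in control cells, beside a median of 0 over all genes tested in each. The comparisons of each population with its own DMSO group share no libraries, but each knockdown comparison below shares libraries with both of them.

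With thapsigargin, all 10 genes were lower in knockdown than in control cells, at a median log2 change of -1.05. Of all genes tested 56.9% passed in this comparison, 28.4% as lower, and their median was 0.02. In each of the 10 the knockdown libraries lay below the control libraries without overlap, which held for 30.9% of all genes. In DMSO 5 were lower, where 26.5% of all genes were, and none was higher, where 25% were, or 51.5% in either direction. The 5 were Slc6a9, Slc7a5, Slc36a4, Slc38a2 and Slc1a4. Slc7a1, Slc7a3, Slc3a2, Slc38a1 and Slc1a5 did not pass in DMSO. In 6 genes the DMSO libraries of knockdown cells all lay below those of control cells, Slc1a5 being the sixth, where 29.1% of all genes did so. The median log2 change in DMSO was -0.2, beside 0 for all genes.

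**Figure D4:**
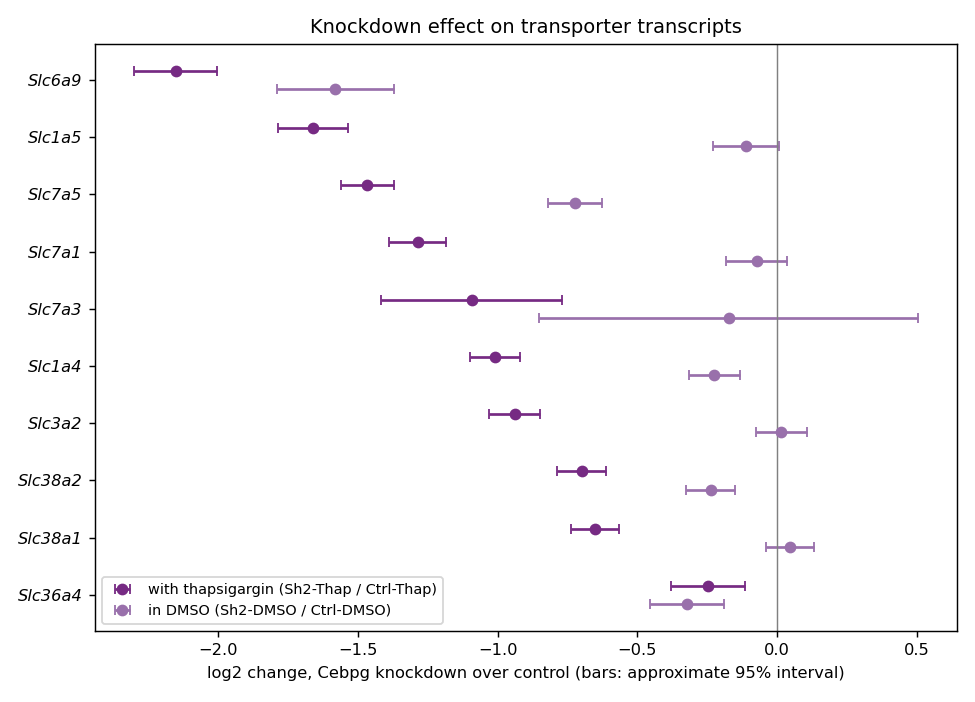
Points are log2 changes of knockdown over control cells, with thapsigargin above and in DMSO below for each gene, and bars are approximate 95% intervals. With thapsigargin the values run from -2.15 for Slc6a9 to -0.25 for Slc36a4.

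The difference of thapsigargin effects between knockdown and control cells was below 0 and passed for 8 of the 10 genes, where 17.7% of all genes tested passed below 0, and it passed above 0 for none of them, where 17.7% of all genes did, or 35.4% in either direction. With total-reads scaling those background shares were 10.6% below and 32.9% above 0, since that scaling puts the median gene at 0.17 in place of 0.01, and the same 8 genes passed below 0. The median over the 10 genes was -0.76, beside 0.01 over all genes. Slc1a5 had 3.47% of all genes tested below its value, Slc7a1 5.07%, Slc3a2 7.19% and Slc38a2 16.8%. The ATF4 transcript itself rose in both populations, to 1265 ± 18.4 CPM in Sh2-Thap against 489.8 ± 10.6 CPM in Sh2-DMSO, and to 1757.9 ± 18.6 CPM in Ctrl-Thap against 424 ± 11.7 CPM in Ctrl-DMSO, with a difference of effects of -0.68 (SE 0.06, edgeR adjusted p = 1.64e-11). Whether that difference has a part in those of the transporters was not tested.

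**Figure D5:**
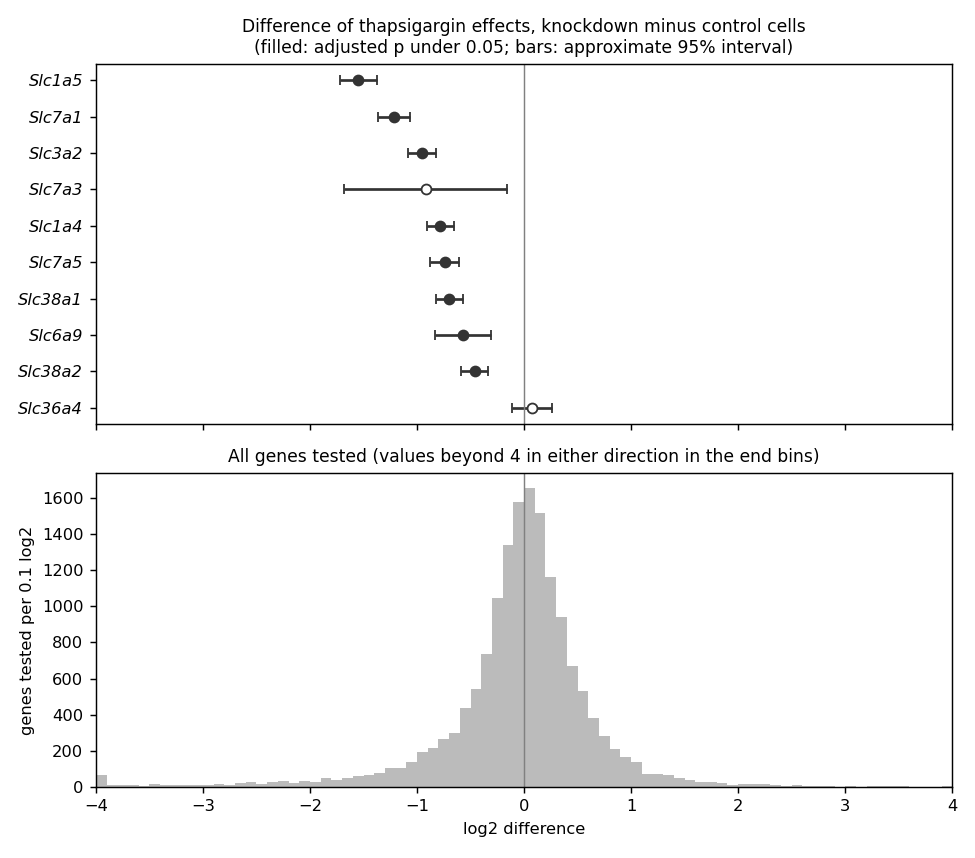
The upper panel gives each gene's log2 difference of thapsigargin effects, knockdown minus control cells, with its approximate 95% interval, filled where the adjusted p is under 0.05. The lower panel counts all 15828 genes tested in bins of 0.1. The 8 filled points lie between -1.55 and -0.46.

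A further list of 45 genes for amino acid carriers of the plasma membrane and the lysosome was read in the same way, of which 28 passed the filter and 17 did not. Some of the 28, Slc1a1 and Slc1a7 among them, passed it only through the thapsigargin groups, Slc1a1 through Ctrl-Thap alone. Their rise was thus open to the filter, as were the difference of effects of Slc1a7 and the lower level of Slc1a1 in Sh2-Thap than in Ctrl-Thap. The counts and medians below are a description. In knockdown cells thapsigargin raised 13 of the 28 and lowered 8, at a median of 0.21, where 35.4% of all genes rose and 34.4% fell. In control cells it raised 12 and lowered 8, at a median of 0.08, where 37.7% of all genes rose and 37% fell. With thapsigargin the knockdown raised 7 and lowered 8, at a median of 0.01, where 28.5% of all genes were higher and 28.4% lower. In DMSO it raised 8 and lowered 6, at a median of 0.12, where 25% were higher and 26.5% lower. The difference of effects passed above 0 for 6 and below 0 for 5, at a median of -0.08, where 17.7% of all genes passed in each direction.

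In that list, the largest knockdown effects to pass in both treatments were those of Slc7a11, which encodes xCT, the cystine-glutamate exchanger that also pairs with 4F2hc. It stood at 17.8 ± 0.436 CPM in Sh2-Thap and 3.32 ± 0.325 CPM in Sh2-DMSO, against 97.4 ± 3.33 CPM in Ctrl-Thap and 8.47 ± 1.93 CPM in Ctrl-DMSO. It was lower in knockdown cells with thapsigargin (-2.45, SE 0.08, edgeR adjusted p = 1.21e-18) and in DMSO (-1.35, SE 0.13, edgeR adjusted p = 3.14e-09). Its difference of effects was -1.1 (SE 0.16, edgeR adjusted p = 5.44e-06). The glutamate transporter genes Slc1a7 and Slc1a1 were close to absent without thapsigargin. Slc1a7 stood at 2.22 ± 0.336 CPM in Sh2-Thap and 0.119 ± 0.0562 CPM in Sh2-DMSO, against 4.81 ± 0.518 CPM in Ctrl-Thap and 0.0577 ± 0.0285 CPM in Ctrl-DMSO. Its difference of effects was -2.13 (SE 0.7), a value that rests on 12 reads over Sh2-DMSO and 6 over Ctrl-DMSO. It is a description, since only the thapsigargin libraries carried Slc1a7 past the filter. Slc1a1 had 142 reads in Ctrl-Thap and 0 in Ctrl-DMSO, or at least 43.6-fold higher when 3 reads are set as the floor of Ctrl-DMSO as a whole. It had 37 reads in Sh2-Thap and 1 in Sh2-DMSO, a ratio of 37.2 with an exact 95% counting interval of 6.27 to 1507.4, and floor and interval cover counting error only. With thapsigargin Slc1a1 was lower in knockdown cells (-1.75, SE 0.36). That value is a description, since only the Ctrl-Thap libraries, where the gene was highest, carried it past the filter. Slc38a4 encodes another SLC38 carrier and lies on chromosome 15 with 295089 bp between it and Slc38a2. It was lower in knockdown cells with thapsigargin (1.01 ± 0.283 CPM in Sh2-Thap and 2.27 ± 0.247 CPM in Ctrl-Thap, -1.17, SE 0.23, edgeR adjusted p = 5.51e-05). Its difference of effects was -0.44 and did not pass (edgeR adjusted p = 0.452).

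Slc6a6, which encodes the taurine transporter, stood at 209 ± 15.9 CPM in Sh2-Thap and 363.6 ± 9.51 CPM in Sh2-DMSO, against 129.9 ± 9.59 CPM in Ctrl-Thap and 295 ± 9.29 CPM in Ctrl-DMSO. It was higher in knockdown cells with thapsigargin (0.69, SE 0.05, edgeR adjusted p = 1.03e-12) and in DMSO (0.3, SE 0.05, edgeR adjusted p = 1.05e-05). Slc38a6 stood at 23.6 ± 0.483 CPM in Sh2-Thap and 29.7 ± 1.76 CPM in Sh2-DMSO, against 15 ± 0.636 CPM in Ctrl-Thap and 29.2 ± 1.58 CPM in Ctrl-DMSO, with a difference of effects of 0.63 (SE 0.09, edgeR adjusted p = 1.97e-06). Slc43a2, which encodes LAT4, a uniporter of large neutral amino acids, fell with thapsigargin, with log2 effects of -0.84 in knockdown cells and -1.28 in control cells and a difference of 0.44 (SE 0.13, edgeR adjusted p = 0.00775). Slc7a4 fell as well, with log2 effects of -1.35 in knockdown cells and -2.53 in control cells and a difference of 1.18 (SE 0.44, edgeR adjusted p = 0.0371), at levels of at most 2.06 CPM. The glutamate transporter gene Slc1a3 fell, with log2 effects of -1.94 in knockdown cells and -1.99 in control cells. The y+L light chain gene Slc7a7 rose by 2.59 in log2 in knockdown cells (SE 0.23) and by 1.92 in control cells (SE 0.2). The difference of 0.67 did not pass (edgeR adjusted p = 0.114). In DMSO Slc7a7 was lower in knockdown cells (-0.83, SE 0.28, edgeR adjusted p = 0.0131), on 64 reads over Sh2-DMSO and 119 over Ctrl-DMSO. Slc16a10, which encodes the aromatic amino acid transporter TAT1, was also lower in knockdown cells in DMSO (-0.71, SE 0.12, edgeR adjusted p = 4.94e-06). The lysosomal arginine exporter gene Pqlc2 (0.3, SE 0.11, edgeR adjusted p = 0.0265) and the light chain gene Slc7a6 (0.17, SE 0.05, edgeR adjusted p = 0.00309) were higher there. Slc38a10 had a difference of effects of -0.28 (SE 0.07, edgeR adjusted p = 0.000896).

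Genes with the most similar pattern were sought among 10192 genes with a mean of at least 5 CPM, by the root mean square difference of log2 CPM over the 12 libraries after each gene was centred on its own mean. The libraries share treatments and scaling, so the distances are descriptions. Slc6a9 was closest to Aldh1l2, a mitochondrial folate enzyme gene (0.16 log2 units, beside an SD of 1.72 for Slc6a9 itself). Slc3a2 was closest to Cpox, of haem synthesis (0.12), Slc7a5 to Ank2 (0.14) and Slc7a1 to Piga, of glycolipid anchor synthesis (0.11). Slc7a3 was closest to the ER chaperone cofactor gene Sdf2l1 (0.25). Slc38a1 was closest to Tgoln1 (0.05) and Slc38a2 to Zfp106 (0.03), beside an SD of 0.31 for each of the pair. Slc1a4 was closest to Leprotl1 (0.05), Slc36a4 to Oxsm (0.04) and Slc1a5 to the glucose transporter gene Slc2a1 (0.1).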

How the data were processed

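Poly(A) RNA of 12 C2C12 libraries was sequenced, per the labels' protocols. The authors deposited raw read counts per gene, 1 table per library. Per the submitters' processing notes, Trim Galore, STAR 2.5.3a, bedtools 2.31.0 and DESeq2 were used, with the builds mm10 and hg38 named. The counter, annotation and strand setting are not given in the sources used here. The 5 entries that name no gene held 13.32% to 14.61% of reads and were left out. Of 53801 identifiers, 53620 matched GENCODE vM21 (GRCm38), the source of symbols, positions and merged exon lengths. Promoters are from RefSeq (GRCm38.p6).

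Counts were tested with edgeR 4.0.16 (TMM, default low-count filter, robust quasi-likelihood fit over the 4 groups, 8 residual degrees of freedom). Adjusted p-values are Benjamini-Hochberg over 15828 genes, with calls under 0.05. SEs were backed out of the log2 change and its F statistic (change over root F), so SEs and intervals are approximate. SEs of CPM gains were propagated from group SDs. On simulated data with 200 changed genes among 15828, the fit recovered 93% of genes given a log2 difference of effects of 1 and 73% of those given 0.5, with 5 false calls, and 98% and 85% for the knockdown in DMSO, with 12. The changed genes averaged 1 CPM or more, went up and down in equal number and started from the same level in all groups. In the data 35.4% and 51.5% of genes were called in these comparisons, so the simulated figures may not carry over, least of all to low counts. The 10 genes and the lists were chosen with earlier results of these data known. Besides the 10, the text names the 3 carriers with the largest called change per direction and comparison (any group averaging 1 CPM or more) and the gene most similar to each of the 10. Alternatives were other scalings and filters, DESeq2 1.42.0, limma-voom (limma 3.58.1), an unlogged scale, only the groups compared, a replicate block, a threshold of 0.01 and leaving out each library. Software was R 4.3.3 and Python 3.11.15.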

Additional observations from a re-analysis of the deposited data

Results flagged for a closer look

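For 8 of the 10 genes and 11 of the 28 tested in the further list, the thapsigargin effects differed between knockdown and control cells in the edgeR test of that difference (knockdown minus control, log2). Of all genes tested 35.4% passed that test in either direction, and the further list was near that share. Among the 10 the values were -1.55 for Slc1a5, -1.21 for Slc7a1, -0.95 for Slc3a2, -0.78 for Slc1a4, -0.74 for Slc7a5, -0.70 for Slc38a1, -0.57 for Slc6a9 and -0.46 for Slc38a2. Slc1a5 was the one of these 8 with effects of opposite sign that both passed. In the further list they were -2.13 for Slc1a7, -1.1 for Slc7a11, -0.28 for Slc38a10, -0.22 for Slc15a4 and -0.20 for Slc38a7, and 1.18 for Slc7a4, 0.63 for Slc38a6, 0.44 for Slc43a2, 0.40 for Slc36a1, 0.38 for Slc6a6 and 0.36 for Ctns. Slc15a4, Slc38a7, Slc36a1 and Ctns are outside the rule for named carriers and are listed here for having passed. The value for Slc1a7 is a description, since the gene passed the low-count filter only through the thapsigargin groups and had few reads in DMSO. No explanation of these differences was tested.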

How the results depend on the processing

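For each of the 5 comparisons, the count of the 10 genes called stayed within 1.5 times its value under every alternative run. Leaving out single libraries gave 10 to 10 for the knockdown with thapsigargin, 5 to 6 for the knockdown in DMSO, 7 to 8 for thapsigargin in knockdown cells, 10 to 10 for thapsigargin in control cells and 8 to 9 for the difference of effects. Of all genes tested in these runs, 25.8% to 28.3% were lower for the knockdown with thapsigargin and 23.2% to 26.2% in DMSO. Thapsigargin raised 33% to 35.3% and lowered 31.9% to 34.1% in knockdown cells. In control cells it raised 36.1% to 37.9% and lowered 33.9% to 36.4%. The difference of effects passed below 0 for 15.6% to 17%. At the threshold of 0.01, 7 of the 28 in the further list were called for the knockdown in DMSO (3 higher, 4 lower), against 8 higher and 6 lower at 0.05. Of all genes tested 19.6% were higher and 21.2% lower there at 0.01. For the difference of effects 7 were called at 0.01 (5 above, 2 below 0), against 6 above and 5 below 0 at 0.05. Of all genes tested 12.5% passed above and 13.3% below 0 at 0.01. Values for single genes that turned direction had not passed: Slc3a2 in DMSO (-0.011 with total-reads scaling, and -0.022 to 0.052 when single libraries were left out, below 0 without Ctrl-DMSO replicate 2 or Sh2-DMSO replicate 2), Slc7a3 in DMSO (-0.317 to 0.123 when single libraries were left out, above 0 without Ctrl-DMSO replicate 1) and Slc36a4 with thapsigargin in knockdown cells (0.007 with total-reads scaling). The cause was not tested. With total-reads scaling the median gene moved to 0.15 for the knockdown with thapsigargin, where 39.9% of genes were then higher and 20% lower, against 28.5% and 28.4% with TMM, and to 0.12 for thapsigargin in knockdown cells, where 41.8% rose and 27.3% fell. Same-numbered libraries correlated over genes at -0.1 to 0.3 in their deviations from group means, over 0.1 in 5 of 12 pairs, so the numbers were not taken as pairs. With the replicate block the counts called among the 10 genes were 10, 5, 7, 10 and 8 in the order above. Of all genes tested with that block, 28.7% were lower for the knockdown with thapsigargin and 26.9% in DMSO. Thapsigargin raised 35.7% and lowered 34.6% in knockdown cells, and raised 37.8% and lowered 37.1% in control cells. The difference of effects passed below 0 for 18.2%. Depth limits Slc7a3 most, with 39 to 46 reads over each DMSO group.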
